A study of Mus musculus with 24 samples.

Results

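The cardiac natriuretic peptide system was examined in mouse hearts during experimental autoimmune myocarditis (EAM). It was represented by 8 genes: the peptide genes Nppa, Nppb and Nppc, the receptor genes Npr1, Npr2 and Npr3, and the genes of the processing proteases Corin and Furin. The genes were chosen by symbol, and all 8 matched an Ensembl identifier among the 41388 genes of the deposited count table. RNA had been sequenced from part of the heart of 24 male wild-type BALB/cAnNCrl mice, immunized at 8 to 10 weeks of age. EAM mice were injected with a myosin heavy chain peptide emulsified in supplemented complete Freund's adjuvant (SCFA) on days 0 and 7, and with pertussis toxin on day 0. Control mice had the same adjuvant and toxin with PBS in the emulsion instead of peptide, so both arms carried the immune stimulus and no untreated heart was analysed. There were 4 EAM and 4 control hearts at each of day 10 (D10), day 15 (D15) and day 21 (D21) after immunization. EAM hearts had been selected, as far as possible, for the presence of inflammation, and which part of the heart was taken is not stated in the sources used here. The study found no raised cardiac leucocytes by flow cytometry and no raised troponin I in any D10 EAM mouse. Leucocytes were raised in its EAM groups at D15 and D21.

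Atrial and brain natriuretic peptide are made by heart muscle cells under wall stretch and lower blood pressure and volume. Nppa encodes atrial natriuretic peptide (ANP), which healthy adult atria make in large amounts, while Nppb encodes brain natriuretic peptide (BNP), a clinical marker of ventricular strain. ANP and BNP bind the guanylyl cyclase encoded by Npr1, C-type natriuretic peptide (CNP, from Nppc) binds the one encoded by Npr2, and both raise cyclic GMP (cGMP) in the target cell. Npr3 encodes the clearance receptor, which takes up the peptides and has no cyclase domain. Corin, a cell surface protease of cardiomyocytes, cuts pro-ANP, and Furin, a protease of the Golgi, cuts pro-BNP and pro-CNP.

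Nppb and Nppa are neighbours in the same orientation on chromosome 4, with 13.517 kb between the end of Nppb and the start of Nppa, yet their transcripts differed in pattern across these hearts, so the 250 bases before each start site are shown. Both are RefSeq promoter windows on the plus strand of GRCm38.p6, chr4:147985650-147985899 for Nppb and chr4:148000472-148000721 for Nppa. Capitals mark 4 motifs, each searched on both strands. The motif bound by GATA factors was searched as GATAA, and the one bound by T-box factors as GGTGTGA. The M-CAT motif, bound by TEAD factors, was searched as CATTCC, and the core promoter element known as the TATA box as TATAAA.
Nppa: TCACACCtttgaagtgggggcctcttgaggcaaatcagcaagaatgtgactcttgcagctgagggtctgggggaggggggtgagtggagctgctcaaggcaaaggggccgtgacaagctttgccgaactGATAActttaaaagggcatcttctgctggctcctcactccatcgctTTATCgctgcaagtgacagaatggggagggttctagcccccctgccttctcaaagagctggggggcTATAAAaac
Nppb: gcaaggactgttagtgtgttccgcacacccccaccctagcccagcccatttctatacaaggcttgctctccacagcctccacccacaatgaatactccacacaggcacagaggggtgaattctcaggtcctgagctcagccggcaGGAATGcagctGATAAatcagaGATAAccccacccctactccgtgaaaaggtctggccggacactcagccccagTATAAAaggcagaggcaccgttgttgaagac
Both windows held a pair of GATAA matches, 121 and 75 bases before the start for Nppa and 94 and 83 bases before it for Nppb. Among 32851 mouse promoter windows of 250 bases, 22.6% held any match of this motif on either strand, and the share with a pair was not counted. The T-box site was found in the Nppa window, 250 bases before the start, and in 3.33% of all windows. The M-CAT motif was found in the Nppb window, 105 bases before the start, and in 12.6% of all windows. TATAAA, present in 12.4% of windows, lay 9 bases before the start in Nppa and 31 bases before it in Nppb. The annotation used for gene lengths places the Nppb start at 147985788, inside the window shown, so distances for Nppb depend on the start chosen. A match is a run of letters and shows no binding.

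Total counts per heart were between 15814863 and 24980864. Levels are given as CPM, read counts scaled to library size, with TMM factors over the 24 libraries, and comparisons within a day used edgeR's quasi-likelihood test on 4 against 4 hearts. FDR is its Benjamini-Hochberg adjusted p over all genes tested. A gene rose or fell where the FDR was under 0.01, and it was called where the change was also at least 2-fold. The 8 cardiomyocyte marker genes were abundant in every heart, with a summed level of at least 8065 CPM. The 7 atrial myocyte genes (among them Myl7, Myl4, Sln, Bmp10, Dkk3 and Kcnj3) varied widely between hearts of the same group and between groups, and at D10 and D21 their summed levels did not overlap between EAM and control hearts. The D21 EAM libraries also carry another library code than the other 20 libraries, so that code and EAM cannot be told apart at D21.

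Compared per kilobase of exon, over all 24 hearts, Nppb (461 CPM per kb) and Nppa (449 CPM per kb) were the most abundant members by mean level. Corin followed at 43.6, Furin at 20.5, Npr2 at 15.0, Npr1 at 6.30 and Npr3 at 5.52 CPM per kb. Nppc was near the detection limit at 0.164 CPM per kb. The spread between hearts also differed between members. From the lowest to the highest heart Nppa spanned a 16.6-fold range and Npr3 a 7.87-fold range, against 1.96-fold for Nppb and 1.56-fold for Furin.

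**Figure D1:**
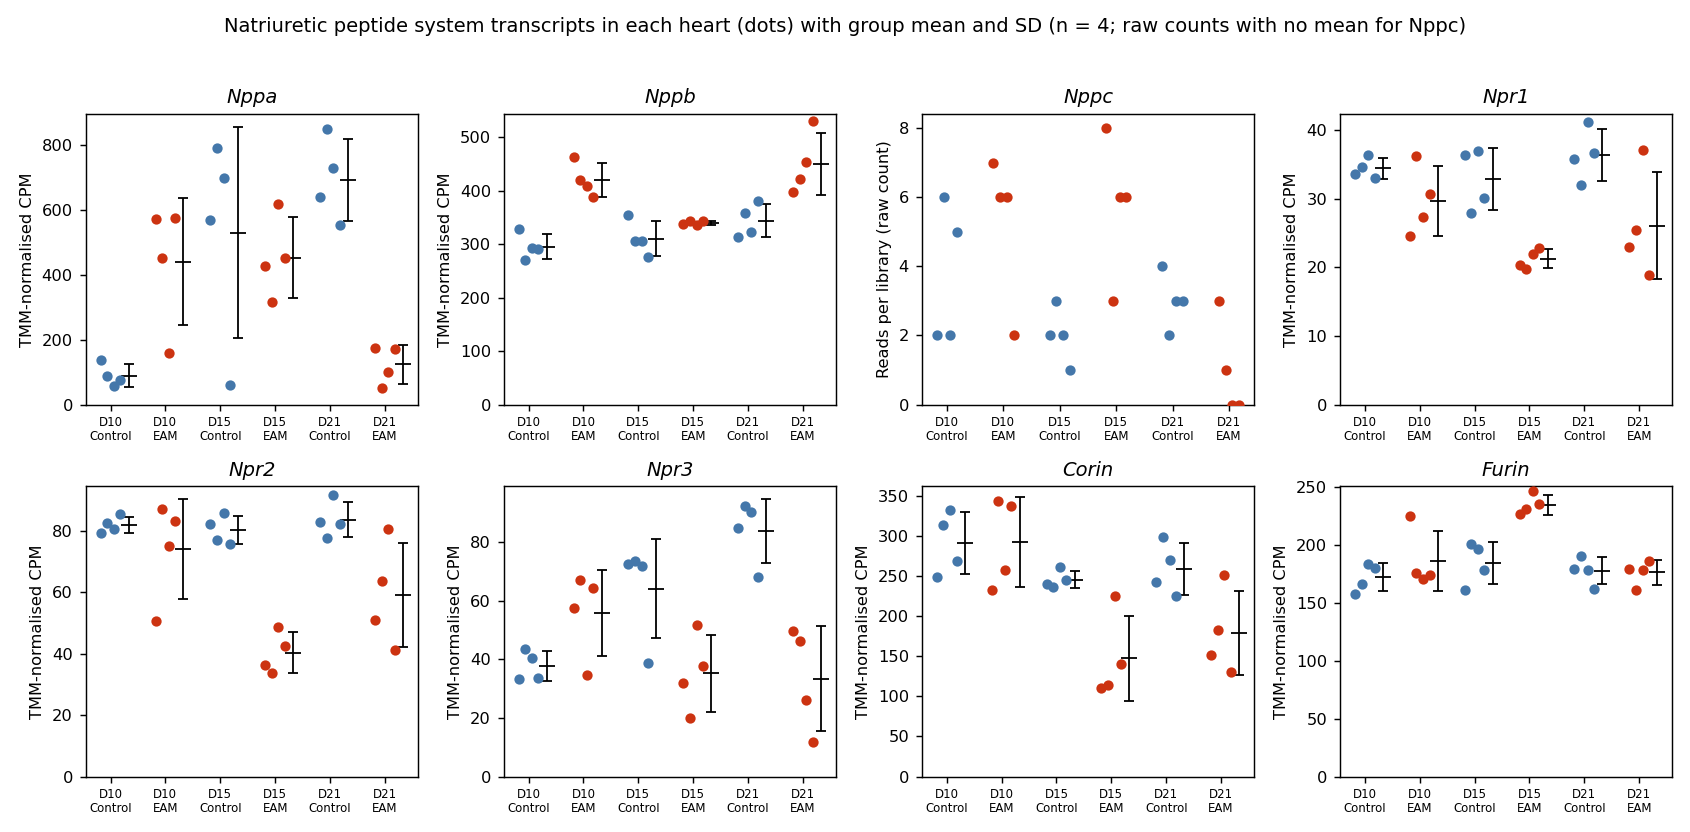
TMM-normalised CPM (raw reads for Nppc) of the 8 genes in each of 24 hearts, blue for control and red for EAM, with a bar for the group mean and SD (n = 4). Nppa separates D21 controls (554 to 851 CPM) from D21 EAM hearts (51.1 to 175 CPM), whereas Nppb stays between 270.5 and 529.8 CPM in every heart.

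By edgeR's quasi-likelihood test on the 8 hearts of each day, Nppa was the only member called in any comparison of EAM with control hearts, and its direction changed with the day. It was 4.90-fold higher in EAM hearts at D10 without passing the FDR, did not separate the groups at D15, and fell to 18.3% of the control level at D21. In D10 controls Nppa measured 137, 87.1, 56.9 and 76.5 CPM (89.4 ± 34.2, mean ± SD, n = 4). In D10 EAM hearts it measured 572, 453, 159.8 and 577 CPM (441 ± 196, n = 4). All 4 EAM hearts lay above all 4 controls, and replicate 3 was the nearest to them. The log2 fold change was 2.29 ± 0.42 (SE), with an FDR of 0.295. At D10 no gene of 15029 passed an FDR of 0.01 in this test (0% called in either direction), 2292 genes (15.3%) had an unadjusted p under 0.05, and 4.41% of genes were higher in EAM hearts without overlap. DESeq2 called Nppa at D10, with an adjusted p of 3.53e-06. With all 12 control hearts as the reference, D15 and D21 controls included, the D10 log2 fold change of Nppa was 0.02 (FDR = 0.986).

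In D15 controls Nppa was at 569.9, 791, 699 and 60.5 CPM (529.98 ± 326, n = 4). In D15 EAM hearts it was at 428, 317, 618 and 453 CPM (454 ± 124, n = 4). Replicate 4 of the controls was far below the other hearts of that day, and the groups overlapped. EAM over control was -0.19 ± 0.59 on the log2 scale (FDR = 0.788). It was -0.55 without control replicate 4 and 0.09 without control replicate 2, so that the sign rested on single control hearts.

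At D21 the 4 controls had 642, 851, 732 and 554 CPM of Nppa (694 ± 127, n = 4). The 4 EAM hearts had 175, 51.1, 99.9 and 171 CPM (124 ± 59.6, n = 4). Every EAM heart was below every control. The log2 fold change was -2.45 ± 0.38 (FDR = 0.00588). Nppa was the single member called by this test, where 1.16% of 15266 genes were called lower and 4.13% higher. That background rested on single libraries. Without control replicate 1, 2 or 3 edgeR called 0 genes of the whole table at D21, with 5633 to 5910 genes at an unadjusted p under 0.05, so every D21 call named here or for the gene lists was lost in those 3 fits. Without control replicate 4 it called 9 genes lower, and without EAM replicate 1 or 2 it called 10 and 32 lower and 4 and 8 higher. The call of Nppa was kept without EAM replicate 3 or 4 (FDR = 0.00299 and 0.00775). With all 12 control hearts as the reference it was -1.77 (FDR = 0.0598) and was not called, and voom gave -2.61 (FDR = 0.0106). The call was also lost without any 1 of the controls or of EAM replicates 1 and 2, with an FDR between 0.0101 and 0.0276 and a log2 fold change between -2.65 and -2.19.

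The change in the EAM effect on Nppa between D10 and D21 was tested in a fit of all 24 hearts. The log2 effect at D21 was lower than that at D10 by -4.78 ± 0.77 (FDR = 0.00124), and this passed in all 24 fits that left out a heart. Nppa was 1 of 120 genes called lower in this contrast (0.735% of 16318). The D15 effect minus the D10 effect was -2.52 ± 0.75 (FDR = 0.0106), where 7.35% of genes were called lower. That difference passed in 5 of 24 fits, those without replicate 3 of the D10 EAM hearts, replicate 4 of the D15 controls, replicate 3 of the D15 EAM hearts, and replicates 2 and 4 of the D21 EAM hearts (FDR between 0.00362 and 0.00976).

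Transcripts of atrial muscle differed between the same groups as Nppa at D10 and D21. The summed level of the 7 atrial genes was 269.9 to 498 CPM in D10 controls and 548 to 1806 CPM in D10 EAM hearts. At D15 it was 1623 to 2043 CPM in 3 controls, 309 CPM in control replicate 4, and 359 to 1359.95 CPM in EAM hearts. At D21 it was 1501 to 2471 CPM in controls and 53.7 to 123 CPM in EAM hearts. The D10 controls, D15 control replicate 4 and the D21 EAM hearts had both low Nppa and low atrial sums, but the order was not the same throughout. D15 EAM replicate 2 had an atrial sum of 359 CPM with 317 CPM of Nppa, and D10 EAM replicate 3 had a sum of 548 CPM with 159.8 CPM of Nppa.

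The defining atrial genes differed in how they split the hearts. Bmp10, a growth factor of right atrial trabeculae, had 0 to 20 reads in the D10 control libraries, 6 reads in D15 control replicate 4 and 1 to 5 reads in the D21 EAM libraries. It had 128 to 5631 reads in the other 15 libraries. Myl7, the atrial regulatory light chain, was at 46.0 to 125 CPM in D10 controls and at 0.50 to 10.8 CPM in D21 EAM hearts, and in D15 EAM replicate 2 it was at 67.1 CPM, inside the D10 control range. In the D21 comparison Myl7 (log2 fold change -7.41), Myl4 (-6.64), Sln (-7.95), Bmp10 (-10.01), Dkk3 (-2.44) and Kcnj3 (-1.95) were called lower in EAM hearts. Nppa changed less than Myl7, Myl4, Sln and Bmp10 on the log2 scale.

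Since the summed atrial transcripts and the atrial score did not overlap between EAM and control hearts at D10 or D21, EAM and atrial content cannot be told apart on those days, for Nppa or for any other member. Of the 7 genes by themselves, 5 were higher in EAM hearts at D10 without overlap (all genes: 4.41%), and 6 were lower at D21 (all genes: 18.7%). At D15 the score, the mean log2(CPM + 1) of the 7 genes, did overlap, and a fit with it as a covariate could be made, an alternative added after the data were seen. The overlap came from control replicate 4 alone, at 4.21, while the other controls were at 6.83 to 7.10 and the EAM hearts at 4.92 to 6.55. All D15 values adjusted for the score thus depend on that heart, and the fit was not repeated without it. With the score in the model the D15 log2 fold change of Nppa was 0.84 ± 0.23 (FDR = 0.00974), against -0.19 without it. In these bulk samples fewer cells of a type and less RNA per cell cannot be told apart, for Nppa or for any other member.

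**Figure D2:**
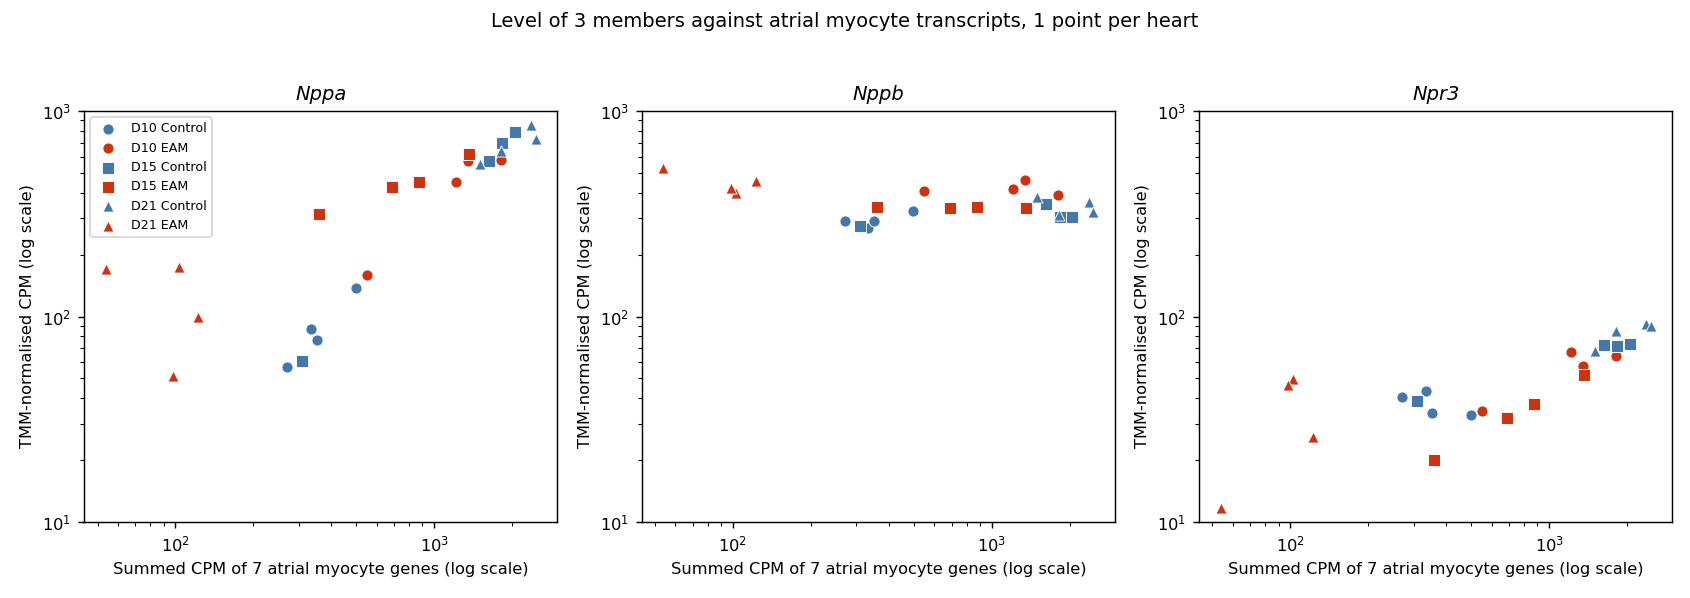
Level of Nppa, Nppb and Npr3 in each heart (y axes, TMM-normalised CPM, log scale) against the summed CPM of 7 atrial myocyte genes (x axes, log scale), coloured blue for control and red for EAM. The D21 EAM hearts lie at the far left (53.7 to 123 CPM), Nppa and Npr3 are highest in the hearts on the right, and Nppb is nearly level.

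Control hearts differed among themselves in the same way. From D10 to D21, with no EAM, Nppa rose from 89.4 to 694 CPM (log2 difference 2.96 ± 0.55, FDR = 0.00633) and Npr3 rose from 37.8 to 84.0 CPM (1.15 ± 0.17, FDR = 0.00377). Both were called, where 0.607% of 15311 genes were called higher, and their groups did not overlap, as for 9.13% of genes. Nppa lost the call without D10 control replicate 2, 3 or 4 or any 1 of the D21 controls (FDR of at most 0.0273). Npr3 lost it without D10 control replicate 3 or D21 control replicate 1 or 3 (FDR of at most 0.0151). The atrial genes Bmp10, Myl7, Sln, Dkk3 and Myl4 were also called higher in the same contrast. From D10 to D15 the log2 differences of controls were 2.58 ± 0.54 for Nppa (FDR = 0.0345) and 0.78 ± 0.18 for Npr3 (FDR = 0.0415), and 0 members were called where 0.0718% of genes were. Without D15 control replicate 4 they were 2.96 (FDR = 5.86e-05) and 0.96 (FDR = 0.000541). With the atrial score as a covariate they were -0.17 and 0.16. These 2 values depend on D15 control replicate 4, the only D15 control whose score (4.21) lay in the D10 range (4.06 to 4.86), against 6.83 to 7.10 in the others.

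The mesothelial genes Msln and Upk3b were low in D10 controls but did not follow Nppa at D21. The remaining gene of that list, Wt1, differed little at D10 (log2 fold change 0.25) or between D21 and D10 controls (0.18). Msln was at 0.27 CPM in D10 controls, 4.23 CPM in D10 EAM hearts, 3.84 CPM in D21 controls and 6.02 CPM in D21 EAM hearts. Upk3b was at 0.97, 10.1, 10.7 and 6.95 CPM in the same groups. Summed over the 3 mesothelial genes, D21 EAM hearts (14.2 to 50.7 CPM) spanned the D21 controls (22.1 to 27.0 CPM). The adipocyte genes Adipoq, Plin1 and Cidec, at 3.57 to 4.99 CPM in D21 controls, were at 0.17 to 0.40 CPM in D21 EAM hearts. The part of these tissues in the Nppa difference was not tested.

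Nppb, in contrast, had control means between 295 and 344 CPM. Its EAM hearts lay above all controls at D10 and D21 and within the control range at D15, and it was not called on any day. In D10 controls it was at 328, 270.5, 292 and 291 CPM (295 ± 23.7, n = 4). In D10 EAM hearts it was at 463, 419, 409 and 389 CPM (420.2 ± 31.3, n = 4). The lowest EAM heart was above the highest control. The log2 fold change was 0.50 ± 0.09 (FDR = 0.283), and DESeq2 gave an adjusted p of 0.000134 for the same difference. With all 12 control hearts as the reference it was 0.42 (FDR = 0.00250).

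At D15 Nppb measured 354, 306, 305 and 277 CPM in controls and 338, 342, 336 and 343 CPM in EAM hearts. The 4 EAM hearts were tightly grouped within the control range. On the log2 scale the difference was 0.17 ± 0.09 (FDR = 0.0977). At D21 it measured 313, 359, 323 and 379.998 CPM in controls (344 ± 31.2, n = 4). In D21 EAM hearts it measured 397, 421, 454 and 529.8 CPM (451 ± 57.8, n = 4), again with no overlap. The difference was 0.41 ± 0.12 (FDR = 0.0351), where 17.8% of genes were higher in EAM hearts without overlap, and with all 12 controls it was 0.55 (FDR = 9.17e-05). The EAM effect on Nppb was not shown to differ between D21 and D10 (-0.12 ± 0.13, FDR = 0.672). In order of group means, D21 EAM and D10 EAM hearts overlapped each other and lay above the other 4 groups, which formed an overlapping series from D21 controls down to D10 controls.

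Nppb and the atrial genes moved together on some days and apart on others. At D10 both Nppb and the atrial sum were higher in EAM hearts without overlap. At D21 Nppb was higher and the atrial sum lower, and Nppb was as high in the 4 D21 EAM hearts, with almost no Bmp10, as in the D10 EAM hearts, with 7.13 to 182 CPM of Bmp10. In the D15 fit with the atrial score its log2 fold change was 0.20 ± 0.09 (FDR = 0.0723).

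The 2 peptide transcripts were then set against each other within each library, a ratio that does not depend on normalization. In D10 controls there were 2.39, 3.11, 5.14 and 3.81 Nppb reads per Nppa read. In D21 EAM hearts the ratio was 2.27, 8.24, 4.54 and 3.11. Both groups with few atrial transcripts were thus dominated by Nppb. In D21 controls the ratio was 0.488, 0.422, 0.441 and 0.686, so Nppa exceeded Nppb in all 4. The mean log2 ratio at D21 was 3.01 higher in EAM hearts, an 8.06-fold difference (exact permutation test, two-sided, p = 0.0286, the smallest that 4 against 4 hearts allow). At D10 it was lower by -1.70 (p = 0.0571, exact permutation test), and EAM replicate 3, at 2.56, was the one EAM heart within the control range. At D15 the difference was -0.11 (p = 0.971, exact permutation test), and 0.71 without control replicate 4, whose ratio was 4.57. After adjustment over the 6 ratio tests of 2 ratios on 3 days, the adjusted p was 0.0857 at both D10 and D21.

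**Figure D3:**
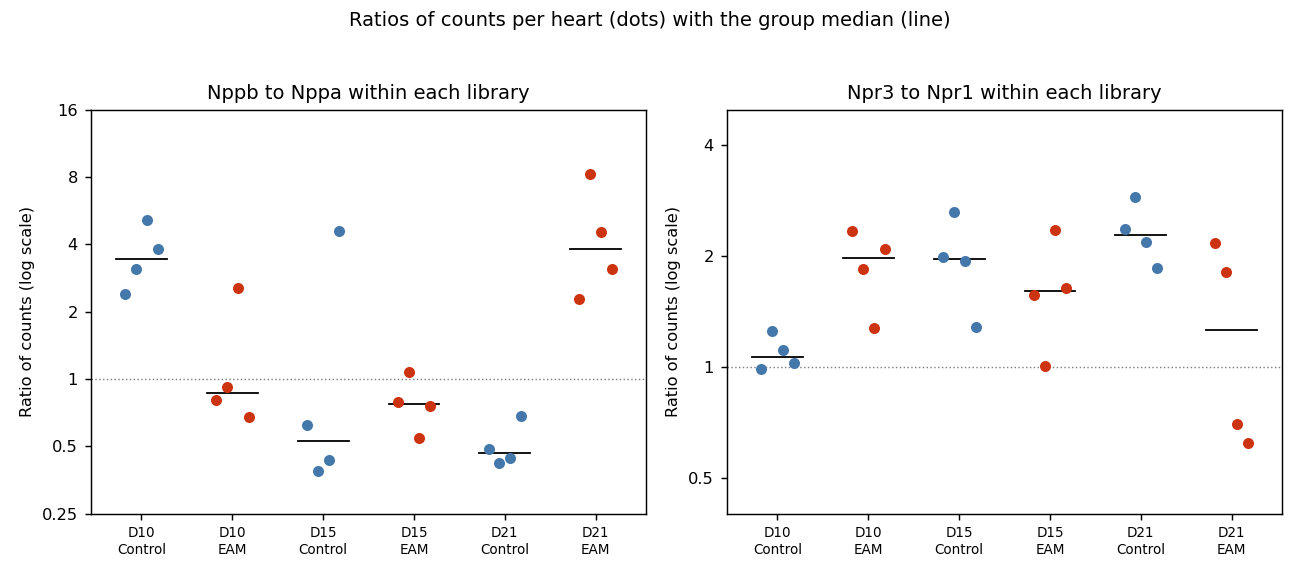
Ratio of counts within each library (y axes, log scale) for Nppb to Nppa and for Npr3 to Npr1, with 1 dot per heart and a line at the group median. Nppb exceeds Nppa in all D10 controls and D21 EAM hearts and falls below it in all D21 controls.

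Nppc, the CNP gene, was near the detection limit in every group and failed the count filter. The 24 libraries held 83 Nppc reads in all, with 0 to 8 reads in a library, and the gene did not reach 10 reads in any. The highest counts were in EAM hearts, with 8 reads in D15 replicate 1 and 7 reads in D10 replicate 1. D21 EAM replicates 3 and 4 had 0 reads, which allows a level of up to 0.190 and 0.175 CPM at these depths, counting error only. In the fit with no filter its FDR on the 3 days in order was 0.766, 0.142 and 0.293, and no fold is given since both groups were close to what 3 reads allow. A difference between groups was not detectable at this depth.

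Among the receptors, both cyclase genes fell in EAM hearts at D15, and no receptor was called by edgeR's quasi-likelihood test on the 8 hearts of any day. Npr1, the ANP and BNP receptor, was at 36.5, 27.9, 37.0 and 30.2 CPM in D15 controls (32.9 ± 4.52, n = 4). In D15 EAM hearts it was at 20.4, 19.8, 21.98 and 22.9 CPM (21.3 ± 1.40, n = 4), all below every control. Its log2 fold change was -0.59 ± 0.10 (FDR = 0.000609), which is 66.4% of the control level. Npr2, the CNP receptor, was at 82.3, 77.2, 85.9 and 75.8 CPM in D15 controls (80.3 ± 4.66, n = 4). In D15 EAM hearts it was at 36.4, 33.7, 48.8 and 42.7 CPM (40.4 ± 6.74, n = 4). The groups were widely apart, and the log2 fold change of -0.95 ± 0.11 (FDR = 4.78e-05) was just short of the 2-fold limit. Without EAM replicate 3, the highest of the EAM hearts, it was -1.02 (FDR = 7.15e-06) and was called. Both receptors kept an FDR under 0.01 in all 8 fits that left out a heart. At D15 such falls were common: 31.1% of 15693 genes fell by this test and 35.9% were lower in EAM hearts without overlap.

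On the other days the cyclase receptors were less separated. At D10 Npr2 was at 79.3 to 85.4 CPM in controls and at 50.7, 87.2, 75.2 and 83.2 CPM in EAM hearts. Replicate 1, the low EAM heart, was also the D10 EAM heart with the highest summed level of 7 leucocyte genes, 1010 CPM against at most 308 CPM in D10 controls. The D10 log2 fold changes were -0.16 ± 0.15 for Npr2 (FDR = 0.564) and -0.23 ± 0.12 for Npr1 (FDR = 0.357). At D21 Npr2 was at 77.8 to 91.7 CPM in controls and at 51.0, 63.7, 80.6 and 41.2 CPM in EAM hearts, where replicate 3 reached the control range. The D21 log2 fold changes were -0.49 ± 0.18 for Npr2 (FDR = 0.0615) and -0.47 ± 0.18 for Npr1 (FDR = 0.0789). Without EAM replicate 3 they were -0.67 (FDR = 0.00614) and -0.68 (FDR = 0.00409). The EAM effect on Npr2 was lower at D15 than at D10 by -0.84 ± 0.24 (FDR = 0.00770), the only member to pass an FDR of 0.01 in that contrast, where 16.7% of genes did so in the lower direction. It kept an FDR under 0.01 in 10 of 24 fits that left out a heart, and the other 14 gave an FDR between 0.0110 and 0.0204.

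Npr3, the clearance receptor, was the most variable receptor. In D10 EAM hearts it was at 57.6, 67.2, 34.9 and 64.3 CPM against 33.3 to 43.4 CPM in controls, with replicate 3 inside the control range (log2 fold change 0.56 ± 0.20, FDR = 0.328). In D15 controls it was at 72.6, 73.6, 71.9 and 38.74 CPM, and in D15 EAM hearts at 32.1, 20.0, 51.7 and 37.6 CPM. The low control was again replicate 4. The log2 fold change was -0.83 ± 0.29 (FDR = 0.0257). It was -0.996 without control replicate 4 (FDR = 0.00739) and -1.03 without EAM replicate 3 (FDR = 0.00594), and -0.64 ± 0.14 with the atrial score as a covariate (FDR = 0.00336). At D21 Npr3 was at 85.0, 92.5, 90.3 and 68.2 CPM in controls and at 49.9, 46.3, 26.1 and 11.8 CPM in EAM hearts. The groups did not overlap, as for 18.7% of genes in this direction, and the log2 fold change was -1.31 ± 0.38 (FDR = 0.0326). DESeq2 called it lower at D21 (-1.31, adjusted p = 0.00377), as did edgeR's likelihood ratio test (FDR = 0.00465) and the fit of all 24 hearts (-1.32, FDR = 0.00383). Voom (-1.48, FDR = 0.0269) and the fit with all 12 control hearts (-0.86, FDR = 0.0454) did not. The D15 effect on Npr3 minus the D10 effect was -1.43 ± 0.47 (FDR = 0.0189), with an FDR of 0.00817 without D15 EAM replicate 3 and of 0.00434 without D21 EAM replicate 4. Cytl1, an endocardial marker, was lower at D15 as well (log2 fold change -1.52, FDR = 0.00327), and at D21 its log2 fold change was -1.81 (FDR = 0.0222). Of the other endocardial markers Plvap was higher at D15 (1.54) and Vwf was at -0.01. At D21 they were at 0.35 and -0.47, and none of these 3 genes passed an FDR of 0.01 that day. At D10 the 3 genes summed to 227 to 306 CPM in EAM hearts and 161 to 224 CPM in controls, and 1 of them was higher without overlap by itself (all genes: 4.41%). The part of endocardial tissue in the Npr3 differences was not tested. EAM and atrial content cannot be told apart for Npr3 at D10 or D21.

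The balance of clearance to signalling receptor was followed as the Npr3 to Npr1 ratio. In D10 controls it was 0.988, 1.25, 1.11 and 1.02, and in D10 EAM hearts 2.35, 1.85, 1.27 and 2.09. EAM hearts had the higher ratio in all 4, by 1.69-fold on average (p = 0.0286, exact permutation test, two-sided). At D21 it was 1.86 to 2.89 in controls and 2.17, 1.82, 0.703 and 0.623 in EAM hearts, a mean log2 difference of -1.004 (p = 0.0571, exact permutation test). At D15 the groups overlapped (-0.27, p = 0.429, exact permutation test). The adjusted p was 0.0857 at D10 and D21. For this ratio too, EAM and atrial content cannot be told apart on those days.

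Of the processing genes Furin rose at D15, and Corin was lower in all EAM hearts that day, with an FDR on either side of 0.01 between fits. Corin was at 240.1, 236, 261 and 244 CPM in D15 controls (245 ± 10.7, n = 4). In D15 EAM hearts it was at 111, 113, 224 and 140.1 CPM (147 ± 53.2, n = 4), all lower than the controls but with replicate 3 close to them. Its log2 fold change was -0.70 ± 0.20 (FDR = 0.0113), and -0.94 ± 0.09 without that heart (FDR = 1.46e-05). It passed an FDR of 0.01 by DESeq2 (0.00142), the likelihood ratio test (0.00185) and voom (0.00756), with all 24 hearts (0.00311), with all 12 controls (9.60e-05) and with no filter (0.00888), but not with RLE factors, with total counts (0.0215) or with the atrial score (0.0154). At D10 it was 232 to 343 CPM in EAM hearts and 249 to 332 CPM in controls (FDR = 0.993). At D21 it was 225 to 298 CPM in controls and 152, 183, 251 and 131 CPM in EAM hearts (-0.52 ± 0.19, FDR = 0.0626), and without replicate 3 it was -0.72 (FDR = 0.00484).

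Furin was at 161, 201, 197 and 178 CPM in D15 controls (184 ± 18.1, n = 4). In D15 EAM hearts it was at 227, 231, 246 and 235 CPM (235 ± 8.41, n = 4), above every control. It rose by 0.39 ± 0.08 on the log2 scale (FDR = 0.00189), a 1.31-fold change, and kept an FDR under 0.01 in all 8 fits that left out a heart. By the same test 33.2% of genes rose at D15, and 34.5% were higher without overlap. At D10, replicate 1 of the EAM hearts stood out at 225 CPM against 171 to 176 CPM in the other 3 and 158 to 184 CPM in controls. At D21 it was at 161 to 186 CPM in EAM hearts and 162 to 191 CPM in controls (log2 fold change 0.01 ± 0.09, FDR = 0.941). D15 EAM hearts were thus the one group that lay above all 5 others without overlap with the next.

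**Figure D4:**
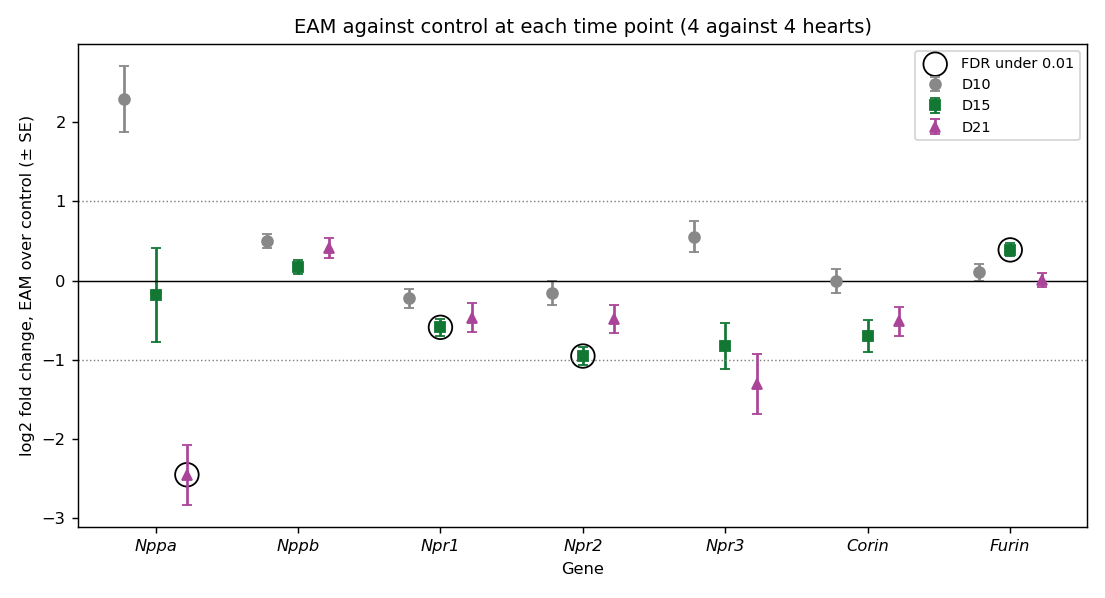
log2 fold change of EAM over control (y axis) with its SE for the 7 genes that passed the count filter, at D10 (grey), D15 (green) and D21 (purple), from edgeR's quasi-likelihood test on 4 against 4 hearts. Circles mark an FDR under 0.01 (Nppa at D21, Npr1, Npr2 and Furin at D15), and dotted lines mark 2-fold changes.

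By count, 0 of 7 tested members were called at D10 and 0 at D15, where 18.1% of all genes were called higher and 12.9% lower, and 1 was called at D21. The 7 genes had a median log2 fold change of 0.10, -0.59 and -0.49 on the 3 days in order, against -0.01, 0.02 and -0.01 over all genes tested. In the contrast of D21 with D15 effects 0 members were called, where 2.74% of genes were called higher and 0.919% lower.

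At D15, cardiomyocyte and leucocyte transcripts moved as well. The summed level of the 8 cardiomyocyte genes was 27735 to 32597 CPM in D15 controls and 8065 to 19361 CPM in EAM hearts, and all 8 were lower in every EAM heart, 7 of them with an FDR under 0.01. The 7 leucocyte genes summed to 138 to 177 CPM in controls and 1216 to 1824 CPM in EAM hearts. All 4 ventricular muscle genes fell at D15 with an FDR under 0.01, with log2 fold changes of -1.33 for Myl2, -1.45 for Myl3, -1.21 for Irx4 and -0.84 for Hey2.

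Markers of vessels and fibroblasts moved at D15 as well. All 7 endothelial genes fell with an FDR under 0.01 (median log2 fold change -0.71), and their summed level was 1079 to 1407 CPM in controls and 729 to 813 CPM in EAM hearts. Of 6 smooth muscle and pericyte genes 3 were called lower (all genes: 12.9%, list median -1.04), and the 6 summed to 1599 to 2007 CPM in controls and 646 to 818 CPM in EAM hearts. Of 7 fibroblast genes 2 were called higher (all genes: 18.1%), and 5 had a log2 fold change above 0 (list median 0.54). The 7 summed to 1948 to 2399 CPM in controls and 7010 to 13344 CPM in EAM hearts. The part of these cell types in the D15 differences of Npr1, Npr2, Corin and Furin was not tested.

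The direction of 5 members at D15 depended on the scale. Per 1000 reads of the 8 cardiomyocyte genes, a description added after the data were seen, the median of each of the 7 tested members was higher in D15 EAM hearts than in controls, those of Nppa, Npr1, Npr2, Npr3 and Corin included, whose log2 fold changes in CPM were below 0. On this scale Corin was at 9.99 to 14.1 in EAM hearts and 7.498 to 8.66 in controls, and Nppb at 17.4 to 42.4 and 8.48 to 12.8. Furin was at 12.7 to 28.6 in EAM hearts and 5.47 to 6.52 in controls, and Nppa at 31.9 to 39.3 and 1.86 to 25.7. None of these genes overlapped between the groups. Npr1 (1.14 to 2.46 and 0.908 to 1.31) and Npr2 (2.52 to 4.18 and 2.32 to 2.97) overlapped between the groups. The denominator was itself lower in EAM hearts (median 11585 CPM, against 31032 CPM in controls), so a gene that fell less than the 8 cardiomyocyte genes is higher on this scale. The share of all genes that are higher on it was not computed, so the count of members shows nothing particular to them.

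Cell type markers also differed at D21. The endothelial genes summed to 745 to 1219.95 CPM in D21 EAM hearts and 1307 to 1545 CPM in controls, and the smooth muscle and pericyte genes to 772 to 1710.1 and 1830.3 to 1900.5 CPM. The fibroblast genes summed to 4175 to 11755 CPM in EAM hearts and 2199 to 2756 CPM in controls, and the leucocyte genes to 333 to 1105 and 149 to 231 CPM. None of these sums overlapped between the groups, while the cardiomyocyte sum did, at 14595 to 33775 and 28609 to 30739 CPM. The fibroblast genes did not move as a set: 2 of 7 were called higher (all genes: 4.13%), 4 had a log2 fold change above 0, and the median was 0.09. The part of these cell types in the D21 differences of Nppa, Nppb, Npr1, Npr2, Npr3 and Corin was not tested.

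The wider pathway was described with 4 gene lists. Of 6 tested genes for processing and breakdown of the peptides, 1 was called higher and 1 lower at D15, when 18.1% of all genes were called higher and 12.9% lower. Pcsk6, a proprotein convertase that activates corin, was at 36.2 CPM in D15 EAM hearts and 129 CPM in controls (log2 fold change -1.79 ± 0.27, FDR = 0.000222). Pcsk5, another convertase, was at 19.0 and 5.74 CPM (1.77 ± 0.13, FDR = 2.46e-06). Mme, which encodes neprilysin, the main degrading enzyme of ANP, fell without reaching 2-fold, from 30.9 to 15.3 CPM (-0.98 ± 0.21, FDR = 0.00232). At D21 the log2 fold changes were -1.04 for Pcsk6 (FDR = 0.0510) and -0.62 for Mme (FDR = 0.0271), and 0 of the list were called. The median of the list was -0.11 at D15.

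Of 17 cGMP signalling genes tested at D15, 4 were called higher and 3 lower (all genes: 18.1% and 12.9%), with a median log2 fold change of -0.28. Pde3a, a cGMP-inhibited cAMP phosphodiesterase of muscle, fell from 162 to 63.7 CPM (-1.31 ± 0.19, FDR = 0.000175), while Pde3b rose from 10.4 to 23.8 CPM (1.22 ± 0.11, FDR = 1.08e-05). Pde1b, a calcium-dependent phosphodiesterase, rose from 3.11 to 13.2 CPM (2.12 ± 0.22). Vasp, a substrate of cGMP-dependent kinase that is abundant in blood cells, rose from 67.1 to 219 CPM (1.75 ± 0.08). Prkg2, encoding the second cGMP-dependent kinase, was low throughout, at 0.29 and 0.78 CPM (1.45 ± 0.29). Gucy1a2, a subunit of the soluble guanylyl cyclase, fell from 5.61 to 2.39 CPM (-1.20 ± 0.24), and Mrvi1, a kinase substrate of smooth muscle, from 28.8 to 13.1 CPM (-1.10 ± 0.22). Pde3a, Gucy1a2 and Mrvi1 were also the 3 genes of 16 tested that were called lower at D21 (-1.07, -1.43 and -1.25; all genes: 1.16%), and none was called higher. These calls were lost without D21 control replicate 1, 2 or 3. 1 of the 18 symbols of the list matched no gene.

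Of 21 transcription factors and cofactors that regulate Nppa or Nppb, 2 were called higher and 3 lower at D15 (all genes: 18.1% and 12.9%). With an FDR under 0.01 and no fold limit, 5 rose and 12 fell (all genes: 33.2% and 31.1%). Gata4, a cardiac activator of both genes, fell from 179.9 to 84.8 CPM (log2 fold change -1.05 ± 0.10, FDR = 1.49e-05). Myocd, a cofactor of serum response factor in muscle, fell from 59.4 to 28.2 CPM (-1.04 ± 0.18), and Hdac9, a repressor of MEF2, from 51.4 to 19.1 CPM (-1.39 ± 0.14). Rest, a repressor of Nppa and Nppb in ventricular muscle, rose from 17.9 to 46.4 CPM (1.41 ± 0.05, FDR = 5.04e-08). Mrtfa, another cofactor of serum response factor, rose from 17.2 to 42.2 CPM (1.34 ± 0.10). The list median was -0.63. At D21, when 1.16% of all genes were called lower, the 1 call was Tbx5, named here after its values were seen, a T-box factor with higher levels in atria than in ventricles, at 22.1 CPM in EAM hearts and 81.3 CPM in controls (-1.87 ± 0.23, FDR = 0.00469). It was lost without D21 control replicate 1, 2 or 3.

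Of 9 other genes known to rise under cardiac stress, 2 were called higher at D15 (all genes: 18.1%) and 1 at D21 (all genes: 4.13%). The list median on the log2 scale was 0.41 in the D15 comparison and 0.72 in the D21 comparison, where 7 of 9 lay above 0. In the latter, 4 of the 9 were higher without overlap (all genes: 17.8%) and 0 were lower. Their summed level was 7878 to 9911 CPM in D21 EAM hearts and 5967 to 7080 CPM in D21 controls, while the D15 sums overlapped. Gdf15, a secreted stress cytokine, rose from 4.604 to 28.9 CPM at D15 (2.68 ± 0.40, FDR = 0.000236) and from 2.78 to 46.4 CPM at D21, where EAM hearts ranged from 12.5 to 119 CPM (4.11 ± 0.75, FDR = 0.00804). Ccn2, a matrix protein induced in fibroblasts, rose from 152 to 317 CPM at D15 (1.10 ± 0.13, FDR = 5.40e-05) and was at 202 and 203 CPM at D21. Myh7, the slow myosin heavy chain that is often induced together with Nppa, was at 365 CPM in D15 EAM hearts and 421 CPM in controls (-0.17, FDR = 0.430), and at 482 and 456 CPM at D21 (0.09, FDR = 0.769). At D10 none of these 4 lists had a called gene.

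**Figure D5:**
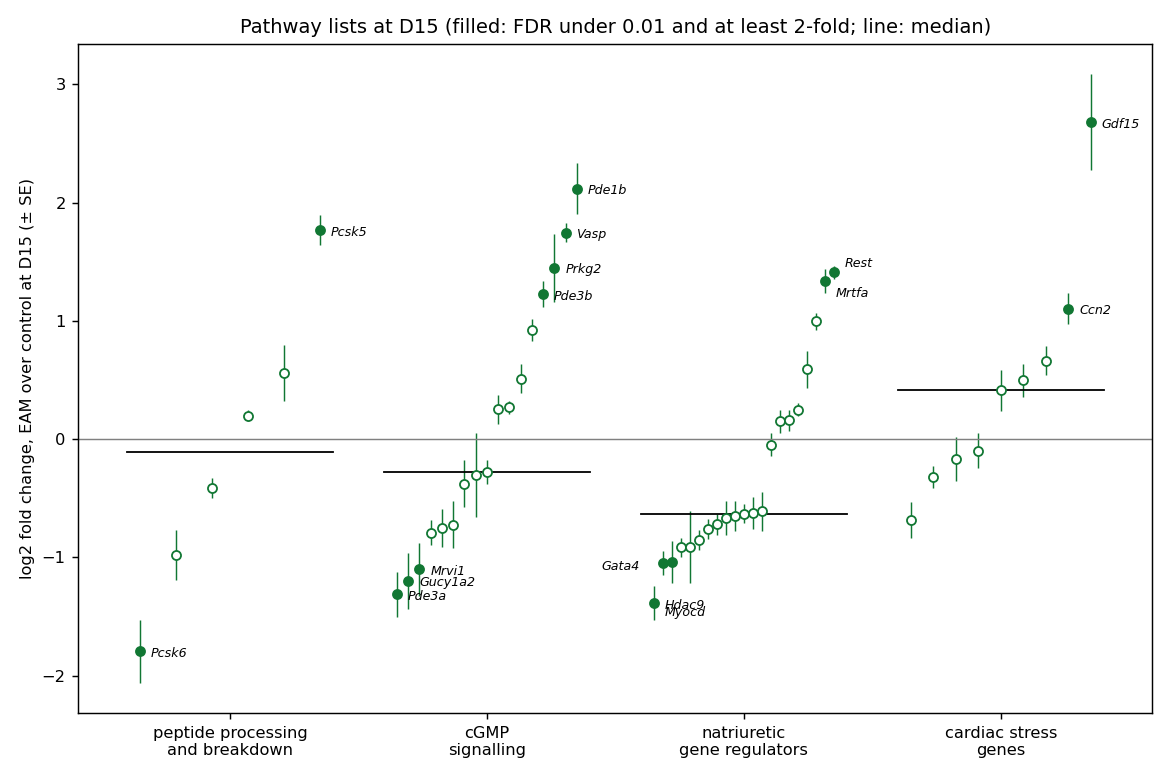
log2 fold change of EAM over control at D15 (y axis) with its SE for each tested gene of 4 pathway lists (x axis), where filled points passed an FDR of 0.01 and a 2-fold change and lines give list medians. The cGMP list and the regulators hold genes moved in both directions, and Pcsk5 and Pcsk6 lie at opposite ends of the processing list.

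The genes most like each member across the 24 hearts were listed by Pearson's r of log2(CPM + 1) among the 14216 genes whose mean reached 1 CPM, as a description over hearts that share day, treatment and tissue composition. For Nppa these were Mlana (0.965), Bmp10 (0.952) and Adamts8 (0.941), and they were the same 3 after group means were subtracted (0.926, 0.896 and 0.896). For Npr3 they were Enpp6 (0.961), Sall1 (0.938) and Bmx (0.927). For Npr1 they were Dock6 (0.9599), Arap3 and Ccm2l, and for Npr2 they were Phldb1 (0.989), Gtf2i and Anks1. Corin was most like Slc27a1 (0.964), Tnik and Las1l, and Furin was most like Kdm7a (0.874), N4bp1 and Chd7. Nppb had the weakest nearest gene, Armc6 (0.810), followed by Cct3 and Frg1. Among members the highest value was that between Npr1 and Npr2 (0.935), and Nppa and Nppb were at 0.07. After group means were subtracted these were 0.853 and 0.375. The nearest genes of Nppb were then Scfd1 (0.709), Tyw5 and Rfc3, none of which was among its first 3, and the first gene also changed for Npr1 (Hdac7), Corin (Plin4) and Furin (Ppme1).

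Part of the Nppa gene is overlapped by an antisense gene. Gm13054 covers 532 of the 865 exon bases of Nppa (61.5%) on the opposite strand, and it had 1 to 144 reads per library, against 938 to 17717 for Nppa. Antisense overlap covers 11.7% of Npr1, 5.70% of Npr2, 3.42% of Npr3, 2.72% of Corin and 1.29% of Furin exon bases. The library kit keeps strand, and whether counting used it is not stated in the sources used here, so reads of these pairs may not be fully told apart.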

How the data were processed

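RNA from part of each of 24 mouse hearts had been made into mRNA libraries with a directional kit and sequenced. Per the labels, the authors aligned reads to GRCm38 with HISAT2 2.0.4, removed duplicates with Picard and assigned reads to Ensembl genes with featureCounts. They deposited raw counts per gene for each sample and as one table, and these forms differed in 0 cells. Removal of duplicates can lower the counts of abundant transcripts such as Nppa and Nppb. Of the features, 92 are spike-in controls with 0 reads, which were left out. Groups and replicate numbers were taken from the sample titles. No source says whether hearts came from separate litters or cages, so p-values measure the spread between these mice.

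A gene was kept where 4 or more samples of a comparison had 10 or more reads of it. Counts were TMM-normalised and tested with edgeR 4.0.16 (quasi-likelihood test, R 4.3.3) at an FDR of 0.01 and a 2-fold limit, the limits of the study. Each day was fitted on its own 8 hearts, differences of EAM effects on all 24, and controls on 12. SEs were derived from the F statistic. The contrast of D21 with D10 effects and the fits with the atrial score were added after the data were seen. Ratios (with 0.5 added to each count) were tested by exact permutation over 70 splits. Alternatives included DESeq2 1.42.0, limma 3.58.1 (voom), other normalizations, filters, limits and control sets, a replicate block and leaving out each library. The fitting code was tested on simulated data. Python 3.11.15, pandas 2.3.3, scipy 1.17.1 and matplotlib 3.10.9 were used for tables and plots. Symbols and exon lengths came from GENCODE M21 (GRCm38), which named 40254 identifiers, and promoters from RefSeq on GRCm38.p6.

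The members, gene lists and tests were chosen with earlier results of these data known. Named were all 8 members, and from each other list the genes called with no overlap between groups at D15 (at most 4 in each direction), the atrial and ventricular lists, and the 3 genes most like each member. Cell type markers are given where they moved with a result, with Wt1, Plvap and Vwf beside them. Mme, Tbx5 and Myh7 were named outside this rule, after their values were seen. Nppc failed the filter. Protein sequences were not used here. A gene of the atrial list is not reported here by name.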

Additional observations from a re-analysis of the deposited data

Results flagged for a closer look

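In 2 of 42 groups of 4 hearts tested, 1 heart stood apart from the other 3 by Dixon's criterion, which chance gives in about 5% of groups. Npr3 was at 38.74 CPM in D15 control replicate 4 and at 71.9 to 73.6 CPM in the other 3 controls. Nppa (60.5 CPM) and Bmp10 (6 reads) were also low in that heart. Furin was at 225 CPM in D10 EAM replicate 1 and at 171 to 176 CPM in the other 3 EAM hearts, and that heart also had the highest summed leucocyte level of its group (1010 CPM). The EAM effect differed between days for 2 members by a test of the difference in all 24 hearts. For Npr2 the D15 effect minus the D10 effect was -0.84 on the log2 scale (edgeR FDR = 0.00770). For Nppa the D21 effect minus the D10 effect was -4.78 (edgeR FDR = 0.00124), with atrial transcripts higher in EAM hearts at D10 and lower at D21. The part of atrial tissue in that difference was not tested, since it cannot be told apart from EAM on either day.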

How the results depend on the processing

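Of 7 tested members, the number called at D10 was 0, and 1 (Nppa) by DESeq2 or the likelihood ratio test. At D15 it was 0, with 3 past the FDR when no fold limit was set (all genes: 33.2% higher and 31.1% lower), and 0 to 2 when a library was left out. At D21 it was 1, and 2 (Nppa and Npr3) with an FDR of 0.05, by DESeq2, by the likelihood ratio test or with all 24 samples in the fit, 0 by voom or with all 12 controls, and 0 to 1 when a library was left out. For the D15 minus D10 effect it was 0, 2 at an FDR of 0.05 or by the likelihood ratio test, 1 by DESeq2 or with no fold limit, and 0 to 3 when a library was left out. For D21 minus D15 it was 0, and 1 at an FDR of 0.05 or by DESeq2. For D21 minus D10 it was 1, and 2 at an FDR of 0.05, by DESeq2 or by the likelihood ratio test. For controls it was 0 from D10 to D15, 1 at an FDR of 0.05, with no filter, by DESeq2 or by the likelihood ratio test, and 0 to 1 when a library was left out. From D10 to D21 it was 2, 1 by voom, and 0 to 2 when a library was left out. The number of all genes called moved with the setting as well. Of 15266 genes at D21, 630 were called higher and 177 lower in the main fit, 1420 and 438 at an FDR of 0.05. DESeq2 called 1364 and 369, the likelihood ratio test 1356 and 412, and voom 80 and 135. At D10 DESeq2 called 48 genes higher and 4 lower, and the likelihood ratio test 45 and 2. The causes were not tested.

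With the replicate number as a block, 0 members were called at D21 (Nppa -2.59, FDR = 0.0122) and 0 for D21 minus D10 (Nppa -4.82, FDR = 0.0110), both by edgeR. The D15 difference of Nppa was then 0.15 and that of Bmp10 0.0019. Same-numbered EAM and control hearts correlated between -0.10 and 0.37 in their deviations, so the numbers were not taken as pairs.

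Log2 differences whose sign turned are given here. For Corin at D10 they were 0.0078 with RLE factors, 0.0434 with total counts, 0.0056 without a filter, 0.0078 by DESeq2, 0.0088 with all 24 samples, 0.15 with all 12 controls and -0.086 to 0.094 with a library left out. With all 12 controls Npr3 at D10 was -0.14 and Nppa at D15 0.10. By voom the D15 values were 0.32 for Nppa and 1.20 for Bmp10. With the atrial score they were 0.84 for Nppa at D15, and -0.17 for Nppa and -0.039 for Nppb between D15 and D10 controls. These fits depend on D15 control replicate 4. Furin at D21 was -0.015 without a filter and -0.012 with all 24 samples. With total counts Npr1 was -0.020 for D21 minus D15 and Npr2 0.0050 for D15 minus D10 controls. With a library left out, the ranges were -0.55 to 0.086 for Nppa at D15, -0.31 to 0.0093 for Myl2, -0.30 to 0.015 for Myl3 and -0.044 to 0.062 for Furin at D21. For D21 minus D15 they were -0.069 to 0.27 for Npr1 and -0.00051 to 0.48 for Corin. For D15 minus D10 controls they were -0.11 to 0.019 for Npr1 and -0.053 to 0.010 for Npr2, and for D21 minus D10 controls -0.014 to 0.066 for Npr2. The D15 log2 ratio of Nppb to Nppa ranged from -0.48 to 0.71. Nppc could be tested only with no filter, with an edgeR FDR of 0.142 or more on each day.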
